A study of Caenorhabditis elegans with 2 samples.

Results

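FKH-10, a transcription factor of the forkhead family, was mapped in whole Caenorhabditis elegans by ChIP-seq, in which DNA bound by a protein is immunoprecipitated and sequenced, and its peaks at splicing factor genes are described here. The genes were chosen by symbol: every protein-coding gene of the Ensembl WBcel235 annotation whose symbol begins with snr-, rsp-, prp-, lsm-, uaf-, sftb-, sfa- or rnp-. This gave 50 of the 19973 protein-coding genes of the nuclear chromosomes. The samples formed 1 group of 2 biological replicates from separate biosamples of strain OP337, an unc119(ed3) background with the insertion wgIs377, which carries fkh-10 joined to TY1 EGFP FLAG together with unc119; per the labels the GFP-FLAG tag is at the C-terminus. The animals were L1 larvae of mixed sex and unknown age, and no second condition or untagged strain was analysed here. The tagged FKH-10 was expressed from an integrated transgene, and chromatin came from whole animals, so a peak cannot be placed in a cell type. The authors' lists on genome build ce11 held 28842 peaks in replicate 1, 28896 in replicate 2, 19924 in the list called on pooled replicates and 2602 in the optimal set, which was thresholded by irreproducible discovery rate (IDR). By its label the pooled list holds peaks and background as input for IDR. A pooled summit outside the optimal set may therefore be background. The signal of a peak is the authors' own value with no stated scale. Read depth is unknown, so no error from counting reads is given.

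The spliceosome removes introns from messenger RNA precursors. It is built from small nuclear ribonucleoproteins, in which a ring of Sm proteins, or of Sm-like (Lsm) proteins in one case, holds a small nuclear RNA. Serine- and arginine-rich (SR) proteins bind exons and help to choose splice sites, and PRP proteins act in assembly, activation and the catalytic steps. These genes are used in nearly all cells, and in the worm the same machinery also joins a short leader to most messenger RNAs by trans-splicing. Worm genes often lie close together, either as divergent neighbours that share upstream sequence or in operons, where genes of the same strand are transcribed together from the start of the first.

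The share of splicing factor genes with an FKH-10 promoter peak was several times that of protein-coding genes in general, and 10 of the 17 genes with one encode Sm or SR proteins. A gene's promoter window was the 1000 bp before its annotated start and the 200 bp after it. An optimal summit lay in the window of 17 of the 50 genes (34.0%, exact 95% binomial interval 21.2 to 48.8%), against 6.38% of all protein-coding genes. Of the 7 snr genes 5 had one, and of the 8 rsp genes 5. The counts were 4 of 13 for prp, 1 of 7 for lsm, 1 of 9 for rnp, 1 of 3 for sftb, 0 of 2 for uaf and 0 of 1 for sfa. The 17 genes had 15 peaks, because rsp-1 and rsp-2 shared a summit and so did rsp-5 and snr-3. The signal of the 15 peaks lay between 37.3 and 77.5 with a median of 57.5. That of all 1000 optimal promoter peaks lay between 37.03 and 429 with a median of 60.6. The median of the splicing factor peaks was thus slightly below that of all promoter peaks, and the highest of them ranked 320 among the 1000.

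**Figure D1:**
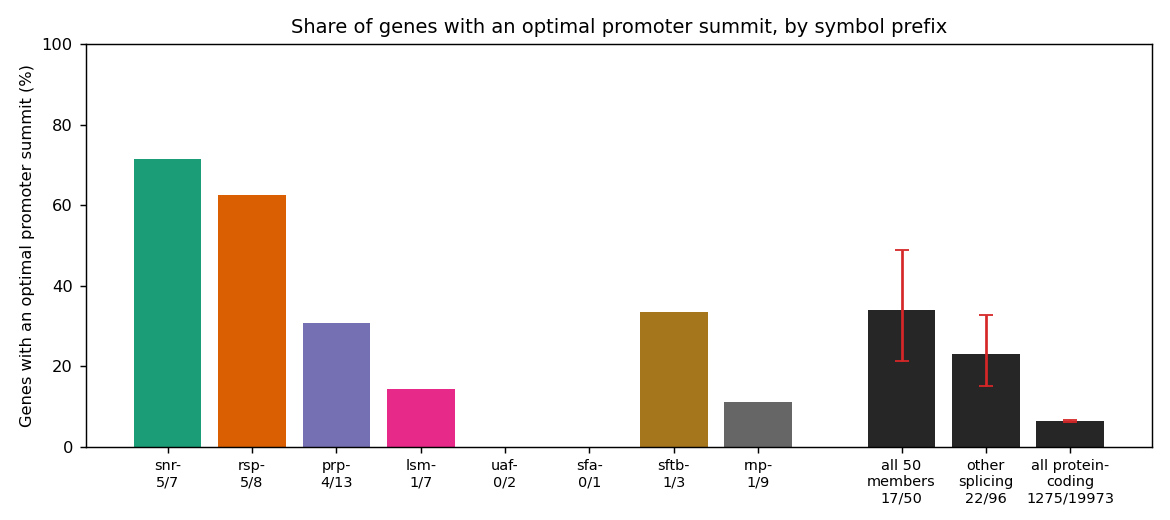
Share of genes with an optimal promoter summit (vertical axis, percent) by symbol prefix, then for all 50 splicing factor genes, 96 other splicing genes and all 19973 protein-coding genes. Counts stand under the bars, and the error bars on the 3 bars at the right are exact 95% binomial intervals. The snr and rsp families stand highest, with 5 of 7 and 5 of 8 genes.

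Summit windows of 101 bp are printed for 9 of the 15 peaks, to show a short word that recurred in them and peaks that lacked it. They are on the plus strand of ce11 from the RefSeq copy of that assembly, and capitals mark TGCGTC or its reverse complement GACGCA. The word was chosen after these sequences had been read, so its count at these genes is a description only. It occurred in 7 of the 15 windows, those at rsp-6, prp-40, snr-1, the shared peak of rsp-1 and rsp-2, lsm-7, snr-6 and rsp-7, of which 6 are shown.
rsp-6, chrIV:7791341-7791441: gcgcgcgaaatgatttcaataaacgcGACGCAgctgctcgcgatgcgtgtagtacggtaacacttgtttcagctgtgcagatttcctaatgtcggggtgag
prp-40, chrIII:9521827-9521927: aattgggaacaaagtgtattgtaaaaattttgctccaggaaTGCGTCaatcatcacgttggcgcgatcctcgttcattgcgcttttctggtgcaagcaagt
snr-1, chrIV:17087613-17087713: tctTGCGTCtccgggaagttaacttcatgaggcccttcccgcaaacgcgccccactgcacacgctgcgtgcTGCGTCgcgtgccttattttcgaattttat
rsp-1 and rsp-2, chrII:11453155-11453255: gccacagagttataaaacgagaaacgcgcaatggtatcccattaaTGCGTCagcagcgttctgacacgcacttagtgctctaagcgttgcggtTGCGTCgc
lsm-7, chrIV:10933205-10933305: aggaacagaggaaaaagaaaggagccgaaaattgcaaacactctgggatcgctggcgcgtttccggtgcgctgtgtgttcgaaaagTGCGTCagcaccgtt
rsp-7, chrII:10658874-10658974: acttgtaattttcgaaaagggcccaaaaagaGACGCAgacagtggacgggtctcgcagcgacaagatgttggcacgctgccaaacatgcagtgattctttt
The other 3 windows shown are those of the peak of highest signal, at snr-4, of prp-8, and of the peak that rsp-5 and snr-3 shared. None of them holds the exact word. Near matches were not counted, and the prp-8 window holds GACGCT, which differs from GACGCA in its last letter.
snr-4, chrV:11980023-11980123: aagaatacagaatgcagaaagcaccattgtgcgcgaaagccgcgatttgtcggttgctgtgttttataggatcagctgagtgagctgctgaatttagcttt
prp-8, chrIII:8164029-8164129: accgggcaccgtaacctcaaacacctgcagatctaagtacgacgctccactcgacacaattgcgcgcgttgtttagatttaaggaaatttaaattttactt
rsp-5 and snr-3, chrII:6489950-6490050: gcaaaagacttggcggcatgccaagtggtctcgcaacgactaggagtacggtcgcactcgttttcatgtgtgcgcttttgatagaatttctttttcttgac

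The word was not peculiar to splicing factor genes. It occurred in 160 of the 985 optimal promoter windows of other genes (16.2%, interval 13.99 to 18.7%) and in 9.36% of the 1602 optimal summits outside promoter windows. At a fixed point 250 bp upstream of all 19973 gene starts the share was 2.79%. Windows centred 300 bp to the right and to the left of the member summits held it in 1 of 15 cases each. As the word was chosen from the member summit windows, a lower count in their flanks follows in part from that choice. Windows so placed beside all promoter summits, members included, held it in 2.50% and 1.90%. The median GC content was 47.5% both in member windows and in those of other genes. It was 34.7% in the flanks on either side of all 1000 optimal promoter summits and 33.7% at the fixed upstream point. The part of base composition in these shares was not tested. The forkhead words searched for, GTAAACA and the looser forms named below, were absent from the member windows. No other word was searched for as a forkhead site, and any relation of TGCGTC to one was not tested. GTAAACA and its reverse complement were found in 0 of 15 (interval up to 21.8%) and in 1.40% of all optimal promoter windows. At least one of the looser forms, namely GTAAATA or else ATAAACA or else ATAAATA, on either strand was found in 0 of 15 and in 3.60%. The GA repeat GAGAGAGA was also in 0 of 15, against 5.40% of all optimal promoter windows, as were the E-box CACGTG (against 2.30%) and the GATA word TGATAA (against 2.80%). TTTCAG, the form of the worm splice acceptor, was in 2 of 15, at rsp-6 and prp-18, against 5.90%. Away from the summits these words had other shares over all genes. At the fixed point 250 bp upstream, the looser forkhead forms had 11.3%, TGATAA had 10.6% and TTTCAG had 17.7%, each above its share at promoter summits. GAGAGAGA, at 1.00% there, was below its share at summits, while GTAAACA had 1.53% and CACGTG 1.58%. In windows 300 bp to the right and to the left of all promoter summits the looser forkhead forms had 11.0% and 10.6%, and GAGAGAGA had 1.40% and 0.60%. With 15 windows, shares of this size were not distinguishable, and no match says only that these letters are not in these windows.

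Among the Sm genes, which encode the ring that holds most spliceosomal RNAs, 5 of 7 had an optimal promoter summit. The snr-4 gene (SmD2, WBGene00004917, chromosome V, 11978508 to 11979723, minus strand) had the highest signal of all members, 77.5 in the optimal list, 27.8 in replicate 1 and 45.3 in replicate 2. Its summit (11980073) lay 350 bp upstream of the gene start, inside the non-coding RNA gene C52E4.14 and 45 bp from the snRNA gene T11F9.15 (11980118 to 11980261). The same peak thus lay beside a gene for a spliceosomal protein and a gene for an snRNA. The snr-1 gene (SmD3, WBGene00004914, IV, 17088049 to 17088946, plus strand) had a signal of 66.4, with 36.2 in replicate 1 and 27.6 in replicate 2, and its summit was 386 bp upstream. The snr-6 gene (SmE, WBGene00004919, III, 12429172 to 12429629, minus strand) had 57.5, with 28.6 and 24.97 in replicates 1 and 2, 272 bp upstream. For these 3 genes both replicates placed the peak among their 2602 highest. The other Sm peaks were weaker and uneven. The snr-3 gene (SmD1, WBGene00004916) had 43.7, with 38.1 in replicate 1 and 8.69 in replicate 2, and snr-2 (SmB, WBGene00004915, chromosome I) had 38.3, with 26.1 and 14.2. The remaining members of the ring had little or nothing. At snr-7 (SmG) the pooled signal was 15.7, and snr-5 (SmF) had a promoter summit in the replicate 2 list alone, with a signal of 5.82.

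SR protein genes had optimal promoter summits at 5 of 8, and 4 of the 5 genes lay in 3 peaks on chromosome II. The rsp-6 gene (SRp20, WBGene00004703, IV, 7789847 to 7791229, minus strand) had a signal of 76.5 in the optimal list, 39.99 in replicate 1 and 37.7 in replicate 2, with the summit 162 bp upstream. Among the 15 peaks it had the highest signal in replicate 1, and it had no divergent neighbour. The genes rsp-1 (WBGene00004698, II, 11453362 to 11455864, plus strand) and rsp-2 (WBGene00004699, II, 11451441 to 11452955, minus strand) start 407 bp apart and point away from each other. A single summit between them (11453205), with a signal of 66.3, lay 157 bp upstream of rsp-1 and 250 bp upstream of rsp-2. Replicate 1 gave 28.2 there and replicate 2 gave 38.4. The genes rsp-5 (WBGene00004702) and snr-3, an SR and an Sm gene, start 404 bp apart in the same arrangement, and their summit (II, 6490000) was 165 and 239 bp upstream. At rsp-7 (WBGene00004704) the signal was 49.8, with 22.8 and 21.995 in replicates 1 and 2, and the summit lay in the non-coding RNA gene M28.13. This window was shared with snu-13, whose product binds the U4 snRNA and box C/D small nucleolar RNAs and whose symbol is outside the rule. The SR genes without an optimal peak were rsp-3 (SF2/ASF), rsp-8 (Tra2) and rsp-4 (SC35). The pooled signal was 33.7 at rsp-3 and 29.5 at rsp-8, while rsp-4 had no promoter summit in any list, its nearest optimal summit being 1284 bp from the start.

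Of the 13 prp genes, whose products act at different steps of the splicing cycle, 4 had an optimal promoter summit. At prp-19 (WBGene00020423, III, 5169933 to 5172045, minus strand), whose product is the ubiquitin ligase of the complex that activates the spliceosome, the signal was 74.1, with 39.9 in replicate 1 and 31.8 in replicate 2. That summit was 621 bp upstream of prp-19, the greatest distance among the 17 genes, and 54 bp from the start of K10D2.5. At prp-40 (WBGene00014218), named for a factor of the first snRNP to bind the precursor, it was 67.0, with 29.7 and 34.7 in replicates 1 and 2, 198 bp upstream. At prp-8 (WBGene00004187), which encodes the scaffold of the catalytic centre, it was 56.8, with 19.3 and 31.8, 294 bp upstream. At prp-18 (WBGene00009320), a factor of the second catalytic step, it was 39.3, with 10.2 and 28.5, 136 bp upstream. In prp-18 the replicates differed most, with rank 15457 in replicate 1 and 1351 in replicate 2. A weaker pooled summit was present at prp-3, with 21.3, and at prp-9, with 16.9, and these summits lay 132 and 117 bp downstream of the gene starts. The other 7 prp genes, prp-4, prp-6, prp-17, prp-21, prp-31, prp-38 and prp-39, had none in the pooled list.

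Among Lsm genes only lsm-7 (WBGene00003081), a subunit of the ring, had an optimal promoter summit. Its signal was 58.0, with 27.7 in replicate 1 and 27.8 in replicate 2, and the summit was 247 bp upstream of lsm-7 and 52 bp upstream of dnc-1, which encodes the large subunit of dynactin. Pooled signals below the optimal threshold were 34.2 at lsm-5, 27.5 at lsm-3, 25.6 at lsm-1 and 14.3 at lsm-8, and lsm-4 and lsm-6 had no pooled promoter summit. The lsm-1 gene belongs to the rule by its symbol, although its product is best known for messenger RNA decay. Among genes of branch point and 3′ splice site recognition a single one had an optimal promoter summit. It was the sftb-1 gene (SF3B1, WBGene00011605), with a signal of 41.3, of 17.7 in replicate 1 and 22.8 in replicate 2, 451 bp upstream. Pooled signals were 31.04 at sftb-6, 24.8 at sftb-2, 15.2 at sfa-1 (SF1), and 12.5 at both uaf-1 and uaf-2, which encode the U2AF subunits. The pooled ranks of uaf-1 and uaf-2 were 19516 and 19524 of 19924 peaks.

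The rnp genes, named for RNA recognition motifs, form a mixed group in which rnp-2 (WBGene00004385), a relative of a protein of the U1 snRNP, alone had an optimal promoter summit. Its signal of 37.3 was the lowest of the 15 peaks and close to the threshold of 37.0, with 29.6 in replicate 1 and 8.11 in replicate 2. The closest member below the threshold was lsm-5 with 34.2. Pooled signals were 30.0 at rnp-6 and 16.7 at rnp-5, and the other 6 rnp genes had none. One of these, rnp-8, acts in germ line poly(A) control and not, as far as is known, in splicing. In all, 33 of 50 genes had a promoter summit in the pooled list, which by its label also holds background (66.0%, interval 51.2 to 78.8%), against 28.0% of all protein-coding genes. The 7 genes prp-31, prp-38, rnp-3, rnp-4, rnp-7, rnp-8 and rsp-4 had no promoter summit in any of the lists (14.0% of 50), against 47.6% of all protein-coding genes.

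**Figure D2:**
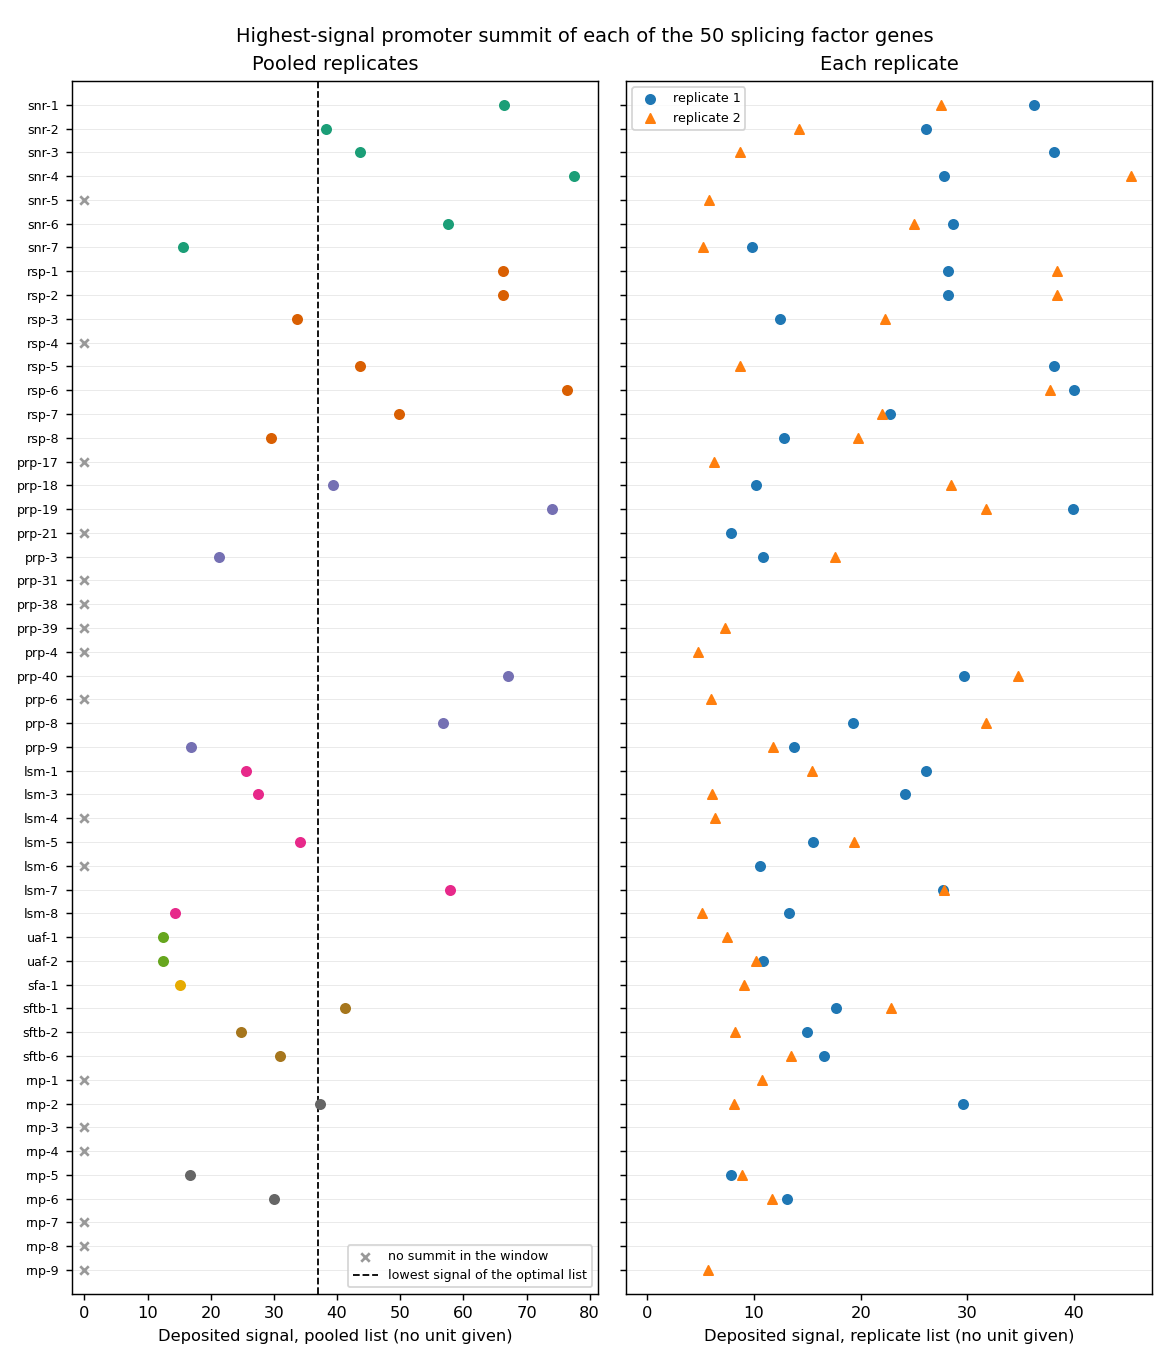
Deposited signal of the highest promoter summit of each of the 50 genes (rows, grouped by prefix) in the pooled list (left, crosses mark genes with no summit, dashed line the lowest optimal signal of 37.0) and in each replicate list (right). The pooled values above the line run from 37.3 at rnp-2 to 77.5 at snr-4, and replicates lie far apart at snr-3, rsp-5, prp-18 and rnp-2.

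Most of the peaks lay between divergent genes, so the nearest start was often not that of the splicing factor. Of the 15 peaks, 13 (86.7%) had a gene start on each side that pointed away from the summit, against 245 of all 1000 optimal promoter peaks (24.5%). In 2 of the 13 both genes were members, and in the other 11 the neighbour was a gene outside the rule. Summits at snr-4 and rsp-6 lay in the window of 1 gene each. For 6 of the 15 peaks the nearest start belonged to the neighbour: K10D2.5 beside prp-19, snx-13 beside snr-1, dnc-1 beside lsm-7, R10E4.1 beside sftb-1, mccc-1 beside prp-18 and W08E3.4 beside snr-2. When each summit was given to its nearest gene start alone, 9 of 50 genes had one (18.0%), against 4.89% of all protein-coding genes.

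**Figure D3:**
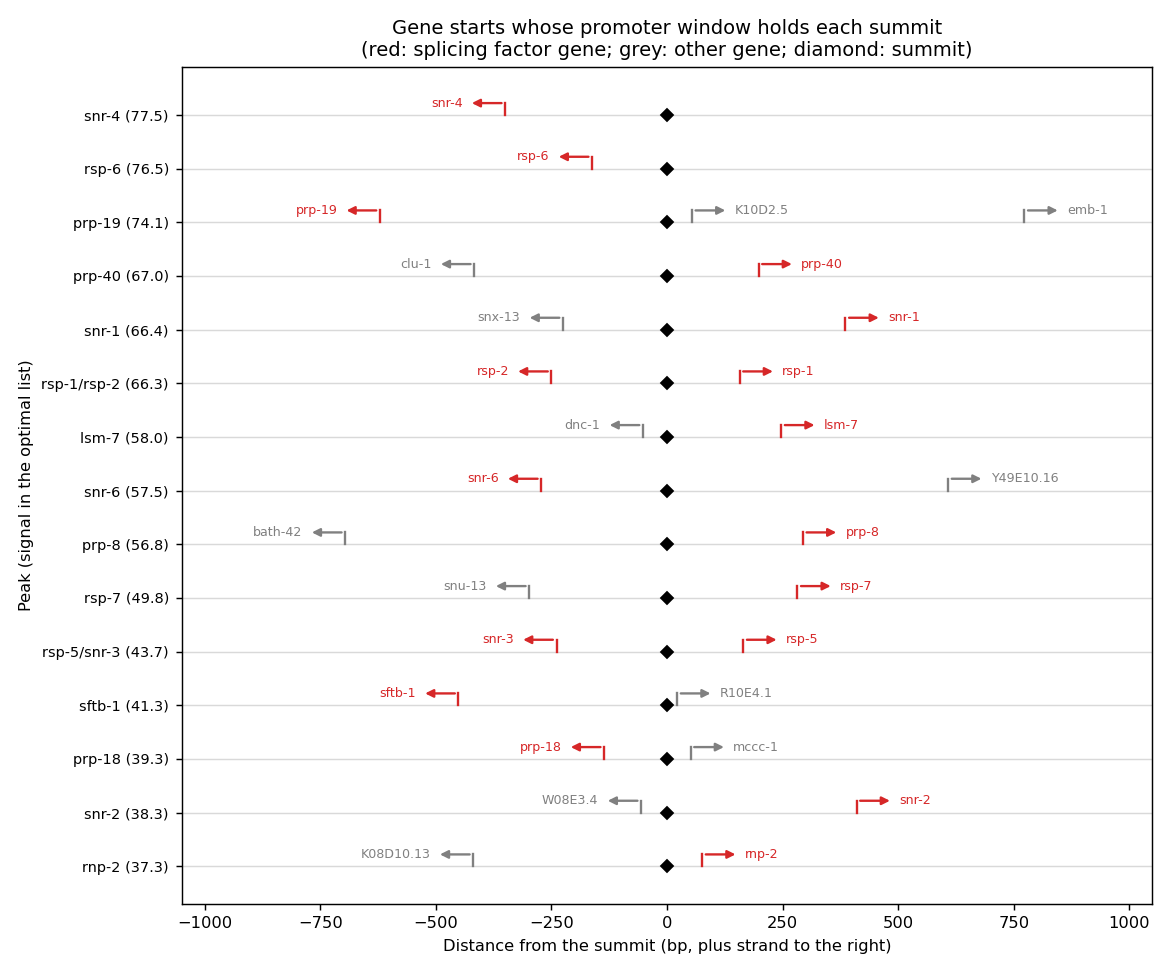
Gene starts around each of the 15 optimal summits, drawn to scale, with distance from the summit on the horizontal axis (bp) and 1 row per peak in order of signal. Arrows show the direction of transcription, red for splicing factor genes and grey for others. In 13 of 15 rows the summit lies between starts that point away from each other.

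The layout itself was also common among these genes. A divergent start within 1000 bp upstream was annotated for 28 of the 50 (56.0%, interval 41.3 to 70.01%), against 17.7% of all protein-coding genes. With such a neighbour, 15 of 28 splicing factor genes had an optimal promoter summit (53.6%, interval 33.9 to 72.5%), against 14.0% of all genes so placed. Without one it was 2 of 22 (9.09%, interval 1.12 to 29.2%), against 4.74%. The share among splicing factor genes was thus above that of all genes where a divergent neighbour was present, and where it was absent its interval held the share of all genes. A summit between divergent starts was counted for both genes, and which of them it belongs to was not tested.

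Several members without a peak of their own lay behind another gene of the same strand, as genes inside operons do. The annotation used gives no operons, so a run was defined by distance: each gene started within 500 bp of the end of the gene before it. Of the 50 genes 12 (24.0%, interval 13.1 to 38.2%) lay behind such a neighbour, and the interval holds the 18.1% of all protein-coding genes. Of these 12, rsp-6 alone had an optimal summit in its own window (8.33%, interval 0.211 to 38.5%). The interval holds the 3.48% of all genes so placed. Of the 38 that did not lie behind a neighbour, 16 had one (42.1%), against 7.03%. At the start of the run, however, an optimal summit was present for 7 of the 12 (58.3%, interval 27.7 to 84.8%), against 12.4% of all genes behind a neighbour. The first genes were ubc-3 for lsm-6 (signal 50.5), sqd-1 for lsm-8 (94.99), smrd-1 for prp-3 (99.6), plrg-1 for prp-38 (55.4), hmgs-1 for prp-39 (93.2), rnp-2 for rnp-3 (37.3) and syf-2 for rnp-7 (81.4). Of these, plrg-1 and syf-2 encode spliceosome components as well. For rnp-7, which encodes U1-70K, the gap to syf-2 was 4 bp, and for prp-38 the gap to plrg-1 was 106 bp. The run of uaf-2, cyn-13 and sfa-1 had no optimal summit at its first gene, nor did those that led to lsm-3, lsm-5, rnp-4 and rsp-6. Counting a summit at either place, 24 of 50 genes had one (48.0%, interval 33.7 to 62.6%), against 8.46% of all protein-coding genes. In this count the rnp-2 summit stands for both rnp-2 and rnp-3. The summits at plrg-1 and syf-2 are also counted among the other splicing genes below, so the results are not independent. Whether these runs are transcribed together was not tested.

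All 17 genes had their summit upstream of the start, between 76 and 621 bp with a median of 250 bp. Of all 1275 genes with an optimal promoter summit 95.4% had it upstream, with a median of 259 bp. The summit was 100 to 500 bp upstream in 15 of 17 splicing factor genes and in 58.8% of all genes with one. The 17 genes have 15 summits, of which 13 lay between divergent starts, against 24.5% of all optimal promoter peaks. The part of this layout in the distances was not tested. No optimal member summit lay downstream of its gene start.

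**Figure D4:**
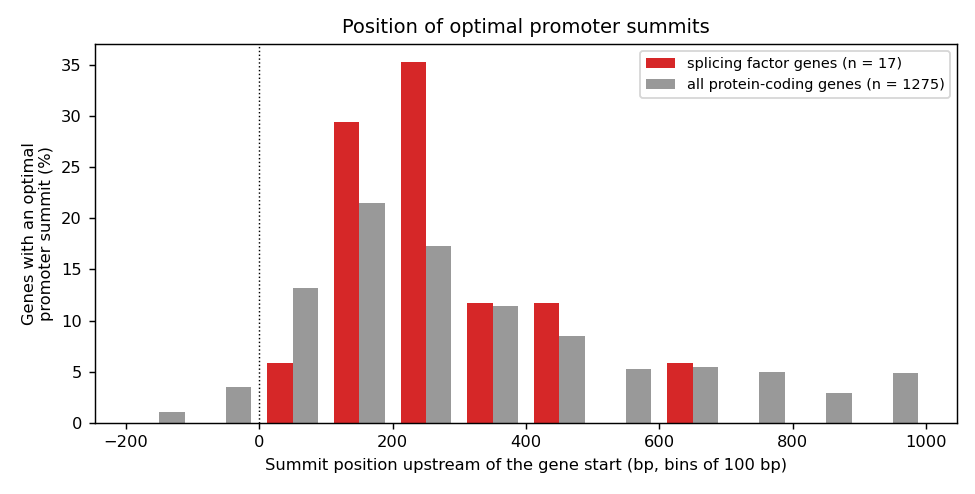
Position of the optimal promoter summit in bins of 100 bp upstream of the gene start (horizontal axis) as a share of the genes that have one (vertical axis, percent), for 17 splicing factor genes in red and all 1275 genes in grey. The red bars lie between 76 and 621 bp, most of them from 100 to 500 bp.

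The replicates gave similar numbers of genes but not always the same ones. Among the 2602 highest-signal peaks of each replicate alone, 16 of 50 genes had a promoter summit in replicate 1 (against 5.91% of all genes) and 16 in replicate 2 (against 6.57%). Of the 15 optimal peaks, 12 overlapped the top peaks of replicate 1, 12 those of replicate 2 and 9 those of both. Of all 1000 optimal promoter peaks, 82.2% overlapped those of replicate 1, 88.1% those of replicate 2 and 72.3% those of both. The 9 were the peaks at snr-4, rsp-6, prp-19, prp-40, snr-1, the pair rsp-1 and rsp-2, lsm-7, snr-6 and rsp-7. With only the optimal peaks that overlapped the top peaks of both replicates, 10 of 50 genes kept a summit (20.0%), against 4.63% of all genes. All 15 peaks had a summit within 100 bp in each full replicate list. The largest shifts along the plus strand were -92 bp at prp-18 in replicate 1 and, in replicate 2, 93 bp at snr-2 and 64 bp at rnp-2. The first 2 lay close to the limit. By the ratio of the ranks, the replicates differed most at prp-18 (11.4), followed by the peak of rsp-5 and snr-3 (8.35) and by rnp-2 (6.36). The peak of rsp-5 and snr-3 ranked 1024 in replicate 1 and 8554 in replicate 2. At rnp-2 the ranks were 1567 and 9972. The higher signal was in replicate 1 at 8 peaks and in replicate 2 at 7, although the scales of the lists differ. Between replicates, the 15 signals had a Spearman rho of 0.143, which describes peaks chosen to lie above a threshold on the pooled signal. In the 1301 optimal peaks of higher signal, 7 of 50 genes had a promoter summit (14.0%), against 3.25% of all genes.

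**Figure D5:**
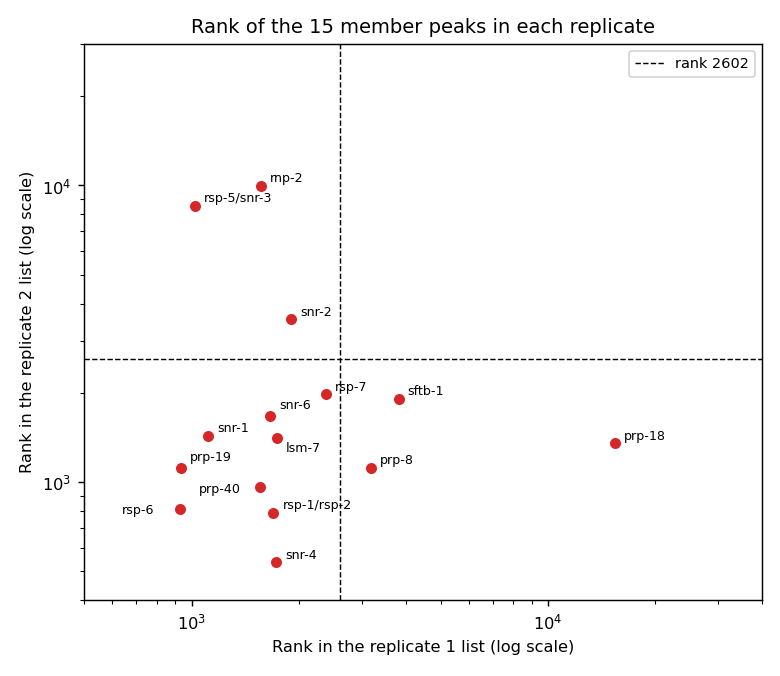
Rank of the 15 peaks by signal within the replicate 1 list (horizontal, log scale) and the replicate 2 list (vertical, log scale), where rank 1 is the highest signal and dashed lines mark rank 2602. Of the 15 points, 9 lie inside both lines, and prp-18, rnp-2 and the peak of rsp-5 and snr-3 lie farthest out.

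Splicing genes with other names also had promoter peaks at a share above that of all genes. A list of 102 further symbols of splicing genes matched 96 genes, of which 22 had an optimal promoter summit (22.9%, interval 14.95 to 32.6%), against 6.38% of all protein-coding genes. This interval overlaps that of the 50 members. With each summit given to its nearest start, 18.0% of the members had one, against 18.75% of the other splicing genes (18 of 96). In the peaks that both replicates had among their top peaks it was 20.0% of the members, against 18.75% of the other splicing genes, and in the 1301 optimal peaks of higher signal 14.0% of the members, against 13.5%. Among the highest signals were those at swp-1 with 106, rbm-39 with 98.0, rsr-1 with 85.2 and usp-39 with 83.5. Each of these exceeds the 77.5 of snr-4. The rsr-1 gene encodes an SRm160 relative and usp-39 a factor of the tri-snRNP. By chromosome, the 50 members were spread over I (8), II (11), III (13), IV (10) and V (7), and a single one, rnp-9, lay on X (2.00%), against 13.7% of all protein-coding genes.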

How the data were processed

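Peaks of FKH-10 ChIP-seq were taken from 1 group of 2 biological replicates. Per the labels, chromatin was fragmented by sonication. The authors deposited narrowPeak lists for each replicate, for the pooled replicates and for an optimal IDR set; per the notes deposited with them, the lists derive from alignments and a control file. The signal per peak is as deposited, with no stated scale. Which aligner and peak caller were used, and at which IDR threshold, is not given in the sources used here. The ce10 lists were not used, and no coordinates were converted.

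Genes came from Ensembl release 115 (WBcel235, the coordinates of ce11), and every ce11 peak fell within the chromosome lengths of the RefSeq copy. Positions are 1-based. Summits were counted for each gene whose window held them. A replicate's value at an optimal peak is its highest-signal summit within 100 bp. Words were searched on both strands within 50 bp of the summit. Intervals are exact 95% binomial (Clopper-Pearson) and cover the sampling of genes or peaks only. No test was run, because the design has 1 group, and genes that share a summit are not independent. Members, lists and alternatives were chosen with earlier results of these data known, and the same-strand runs and the word TGCGTC were added after seeing the data. Named genes are all members with an optimal promoter summit, the 6 highest members below the threshold, the highest of each prefix without one, the 3 with the largest rank difference, the 5 highest other splicing genes, of which 1 is not reported here, and members with no summit. Further members are named to account for all 50. The code (Python 3.11.15, pandas 2.3.3, scipy 1.17.1) was tested on simulated data. Of the symbols of the other splicing genes, 6 had no match.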

Additional observations from a re-analysis of the deposited data

How the results depend on the processing

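With 1 group, no paired analysis was possible because no groups share replicate numbers. The 17 splicing factor genes fell to 9 when each summit went to the nearest gene start alone, 7 in the 1301 optimal peaks of higher signal and 10 in optimal peaks that both replicates had among their top peaks, and lay between 16 and 19 under the other alternatives. With the top peaks of 1 replicate alone the count was 16 each time, with 14 of the 17 genes shared for replicate 1 and 13 for replicate 2. A summit was present in all 9 alternatives that change the window, the assignment or the list at 4 genes, prp-40, rsp-1, rsp-6 and snr-4. Leaving out genes that lie behind a same-strand gene gave 16 of 38 and by construction omitted rsp-6. In the 1301 peaks, 650 of all protein-coding genes and 13 other splicing genes had one, against 1275 and 22. With the nearest start, 17 genes had a pooled summit, against 33. The median signal of 57.5 was 57.96 with the long window, 70.5 in the 1301 peaks, 66.4 in the peaks of both replicates and 27.8 to 28.4 in single replicates. The median distance of -250 bp was -272 with the long window and with any transcript start, -198 with the nearest start, -261 in the peaks of both replicates and -273.5 to -269.5 in single replicates. Within 100 bp of all promoter summits, shares were 2.60% for GTAAACA, 10.4% for the other forkhead words, 8.50% for GAGAGAGA, 4.60% for CACGTG, 6.90% for TGATAA and 18.2% for TTTCAG, as wider windows hold more words, and the other forkhead words had 1.61% in the 1301 peaks. With gaps of up to 1000 bp, an alternative added later, 7 of 13 genes behind a neighbour had a summit at the first gene of the run. Unknown read depth limits all values near the threshold.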
